A study of Rattus norvegicus with 21 samples.

Results

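The response described here is that of rat liver to 2-ethylhexyl diphenyl phosphate at the lowest pair of doses, pooled. The 6 arrays titled 61.2 or 122.5 mg/kg were chosen by the dose in their titles and compared with the 6 arrays titled 0 mg/kg, so 12 of the 21 arrays of the series enter the comparison. Pooling asks what a fit with 3 arrays per dose is too small to show. The pooled value is the mean of both dose means minus the vehicle mean, so it averages over the doses and says nothing of their order.

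The compound is an ester of phosphoric acid that is added to plastics to soften them and to slow burning. Male Harlan Sprague Dawley rats took it in corn oil by oral gavage, once a day on 4 days, at 61.2 or 122.5 mg/kg or at a higher dose (244.6, 489.2 or 978.5 mg/kg), and vehicle rats took corn oil alone. Pieces of the left liver lobe were taken on day 5 and their total RNA was hybridised to Affymetrix rat arrays. The protocol rounds the low doses to 61 and 123 mg/kg and speaks of 5 vehicle rats, but 6 arrays are titled with the dose 0, and none was left out. The age of the rats is not given in the sources used here. The labels give 3 rats per dose group but do not say which rat each array came from, so p-values measure the spread between these arrays.

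The liver meets foreign compounds with a set of enzymes and pumps that oxidise or hydrolyse them, couple them to glucuronic acid, glutathione or sulfate, and export the products. Genes of these steps are controlled in part by CAR and PXR, nuclear receptors that sense drugs and other chemicals, and by NRF2, a transcription factor that is released when electrophiles or oxidants reach its inhibitor KEAP1. Carboxylesterases, which split ester bonds, belong to the same defence.

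The median signal of an array ran from 6.33 to 6.41 (log2), and among the 12 arrays vehicle replicate 6 had the lowest mean correlation with the other arrays, at 0.987. The hepatocyte transcripts Alb, Ttr and Apoa1 had vehicle means of 15.34, 14.86 and 14.09, among the strongest signals, as a liver sample requires. These are signals of bulk tissue, in which fewer cells of a type and less RNA per cell cannot be told apart, and the number of arrays limits the precision of every value. Levels and differences below are log2 signals of 1 probe set per gene, errors are standard errors (SE) from limma, and p-values were adjusted by Benjamini-Hochberg over the 14218 genes tested.

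Pooling the low doses showed 17 genes higher than vehicle and 0 lower at a limma adjusted p under 0.05, which is 0.12% of all genes tested. At an unadjusted limma p under 0.05, 509 genes were higher and 379 lower, together 6.25% of all genes. The 17 genes were Ces2c, Gsta3, Ddit4, Akr7a3, Ugt2b1, Gstt3, Cyp3a23-3a1, Gsr, Aldh1a1, Ephx1, Gclm, Pir, Ddc, Mgst2, Gstm1, Aox1 and Nmrk1. Most code for enzymes that oxidise, hydrolyse or conjugate foreign compounds or that make and recycle glutathione. The differences ran from 1.24-fold for Nmrk1 to 3.28-fold for Ces2c. Of the 17 genes, 12 differed by 1.5-fold or more and 4 by over 1 on the log2 scale. The median log2 difference over all genes was -0.00, and 49.5% of them lay above 0.

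All 6 low-dose arrays lay above all 6 vehicle arrays in 15 of the 17 genes, and in 55 genes (0.387%) of the whole table. The exceptions were Gsr and Gstm1, in which 5 of the 6 low-dose arrays did. All 6 lay below all 6 vehicle arrays in 11 genes (0.0774%) of the table. The count of 17 fell to 11 without vehicle replicate 5, to 10 without replicate 2 at 61.2 mg/kg, to 11 without replicate 2 and to 10 without replicate 3 at 122.5 mg/kg. With array weights 33 genes passed in limma, 28 higher and 5 lower (Mmp8, Slc7a8, Nsmf, Slc34a2 and Abhd2), and with signals floored at the 20th percentile of all values 10 passed.

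**Figure D1:**
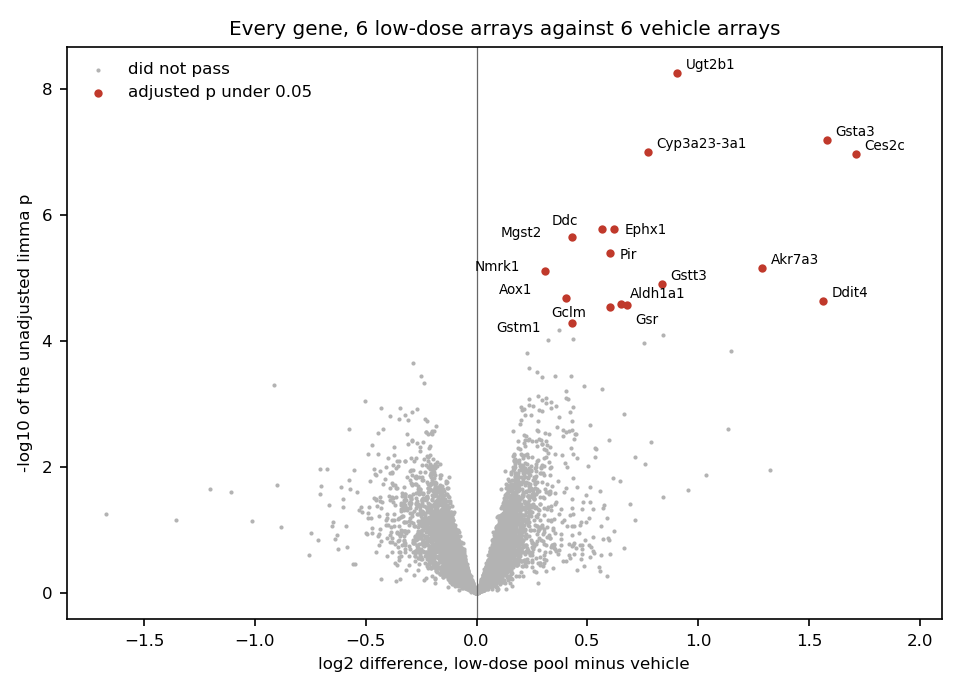
Each point is 1 of 14218 genes, with the log2 difference between the low-dose pool (6 arrays) and vehicle (6 arrays) on the horizontal axis and -log10 of the unadjusted limma p on the vertical axis. The 17 genes with an adjusted p under 0.05 are red and all lie to the right of 0.

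Among enzymes that oxidise and hydrolyse, the carboxylesterase Ces2c gave the largest difference of the 17. Its vehicle arrays ran from 8.52 over a median of 9.12 to 9.21, the arrays at 61.2 mg/kg stood at 9.97, 10.41 and 10.30, and those at 122.5 mg/kg at 11.51, 11.04 and 10.96. The groups did not overlap, and the 122.5 mg/kg arrays also lay above the 61.2 mg/kg arrays. Ces2c rose by 1.71 ± 0.21 on the log2 scale (3.28-fold, limma adjusted p = 0.00038). In Cyp3a23-3a1, a cytochrome that oxidises steroids and many drugs, vehicle arrays ran from 13.11 over 13.26 to 13.44, against 13.66, 13.92 and 13.90 at 61.2 mg/kg and 14.16, 14.26 and 14.28 at 122.5 mg/kg. These groups were ordered in the same way, with no overlap between any pair of them. Cyp3a23-3a1 rose by 0.77 ± 0.09 (1.71-fold, limma adjusted p = 0.00038).

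Ephx1, the microsomal epoxide hydrolase that opens reactive epoxides, rose 1.54-fold (0.62 ± 0.09, limma adjusted p = 0.00395). Its low-dose arrays ran from 13.33 to 13.83 and its vehicle arrays from 12.63 to 13.20. Aldh1a1, which oxidises retinaldehyde and other aldehydes, rose 1.57-fold (0.65 ± 0.12, limma adjusted p = 0.0254), with low-dose arrays from 12.88 to 13.47 and vehicle arrays from 12.10 to 12.74. Aox1, an aldehyde oxidase that also acts on ring nitrogen compounds, rose 1.32-fold (0.40 ± 0.07, limma adjusted p = 0.0244). In each of these 3 genes the groups did not overlap. Ephx1 passed in all 12 fits that each left out 1 array of the comparison. Aldh1a1 did not pass without any one array at 61.2 mg/kg, replicate 2 or 3 at 122.5 mg/kg, or vehicle replicate 2, 3 or 5 (limma adjusted p from 0.0636 to 0.128). Aox1 did not pass without any one array at 61.2 mg/kg, replicate 2 or 3 at 122.5 mg/kg, or vehicle replicate 5 or 6 (limma adjusted p from 0.0507 to 0.11).

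Among conjugating enzymes, the glucuronosyltransferase Ugt2b1 had the smallest adjusted p of the table. Vehicle arrays ran from 12.46 over 12.74 to 13.10, the 61.2 mg/kg arrays stood at 13.62, 13.66 and 13.63, and the 122.5 mg/kg arrays at 13.73, 13.76 and 13.81. The 6 low-dose arrays thus lay close together and all above the vehicle arrays. Ugt2b1 rose by 0.91 ± 0.09 (1.87-fold, limma adjusted p = 7.8e-05). The glutathione transferase Gsta3 ran from 7.54 over 8.03 to 8.39 in vehicle, and stood at 9.65, 9.38 and 9.46 at 61.2 mg/kg and at 9.23, 9.66 and 10.29 at 122.5 mg/kg. No arrays overlapped with vehicle, while the doses overlapped with each other. Gsta3 rose by 1.58 ± 0.19 (2.99-fold, limma adjusted p = 0.00038).

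A further 3 glutathione transferases passed. Gstt3, of the theta class, ran from 10.70 over 11.21 to 11.48 in vehicle, against 11.84, 11.88 and 11.78 at 61.2 mg/kg and 11.77, 12.24 and 12.42 at 122.5 mg/kg. It rose 1.79-fold (0.84 ± 0.14, limma adjusted p = 0.016) with no overlap, but did not pass without replicate 2 at 61.2 mg/kg (limma adjusted p = 0.0553) or replicate 2 (0.0539) or 3 (0.0865) at 122.5 mg/kg. Mgst2, a microsomal member that also makes a leukotriene, rose 1.35-fold (0.43 ± 0.07, limma adjusted p = 0.00451) and passed whichever array was left out. Gstm1, of the mu class, rose 1.35-fold (0.43 ± 0.08, limma adjusted p = 0.0433), and 61.2 mg/kg replicate 3, at 13.85, lay below the highest vehicle array, at 13.90. It passed with replicate 3 at 61.2 mg/kg or vehicle replicate 4 left out, and in none of the 10 other fits that left out an array (limma adjusted p from 0.0501 to 0.173). Members of the Gsta, Gstm, Ugt2b and Cyp3a families have close paralogues, and how far a probe set also took up signal of a paralogue was not tested.

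Of the genes in the list of NRF2 targets described below, Gsta3, Akr7a3, Pir, Gsr and Gclm passed. Akr7a3, an aldo-keto reductase that detoxifies aflatoxin dialdehyde, ran from 11.20 over 11.26 to 11.81 in vehicle, against 12.71, 12.52 and 12.12 at 61.2 mg/kg and 12.29, 12.79 and 13.42 at 122.5 mg/kg. Vehicle replicate 4 held the value of 11.81 and stood apart from the other vehicle arrays, yet below every low-dose array. Akr7a3 rose by 1.29 ± 0.21 (2.44-fold, limma adjusted p = 0.0108). Pir, an iron-binding nuclear protein, ran from 7.30 over 7.49 to 7.69 in vehicle, against 8.27, 7.93 and 8.11 at 61.2 mg/kg and 7.82, 8.02 and 8.33 at 122.5 mg/kg. It rose by 0.60 ± 0.09 (1.52-fold, limma adjusted p = 0.00701), with both doses in the same range.

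Gsr and Gclm serve the glutathione pool, the first by reducing oxidised glutathione and the second as the modifier subunit of the enzyme that starts its synthesis. Gclm ran from 10.31 over 10.88 to 11.00 in vehicle, and stood at 11.39, 11.31 and 11.54 at 61.2 mg/kg and at 11.04, 11.41 and 11.53 at 122.5 mg/kg. It rose 1.52-fold (0.60 ± 0.11, limma adjusted p = 0.0254). Gsr ran from 7.50 over 7.71 to 8.05 in vehicle, against 8.35, 8.26 and 8.56 at 61.2 mg/kg and 7.95, 8.50 and 8.87 at 122.5 mg/kg, so 1 low-dose array lay inside the vehicle range. It rose 1.60-fold (0.68 ± 0.12, limma adjusted p = 0.0254). Gclm did not pass without any one array at 61.2 mg/kg, replicate 2 or 3 at 122.5 mg/kg, or vehicle replicate 5 (limma adjusted p from 0.0553 to 0.131). Gsr did not pass without those arrays or vehicle replicate 1, 2 or 6 (limma adjusted p from 0.0515 to 0.0981).

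Promoter sequence was looked at because NRF2 acts through a short element, the antioxidant response element TGACNNNGC. The RefSeq promoters of the GRCr8 build, 250 bases before to 50 after the start, held 15 of the 17 genes, without Gsr and Mgst2. The element occurred on either strand in 3 of the 15, and in 14.4% of the 11734 promoters of measured genes. The 200 bases before the start of those 3 genes are shown 5′ to 3′ on the gene's own strand, with the matches in capitals, at chr9:31154789-31154988 (plus strand) for Gsta3, chrX:33851050-33851249 (minus strand) for Pir and chr2:213031935-213032134 (plus strand) for Gclm.
Gsta3: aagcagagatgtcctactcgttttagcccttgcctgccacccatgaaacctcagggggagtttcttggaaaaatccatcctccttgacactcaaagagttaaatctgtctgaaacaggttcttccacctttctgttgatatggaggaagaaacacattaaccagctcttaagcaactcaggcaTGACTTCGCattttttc
Pir: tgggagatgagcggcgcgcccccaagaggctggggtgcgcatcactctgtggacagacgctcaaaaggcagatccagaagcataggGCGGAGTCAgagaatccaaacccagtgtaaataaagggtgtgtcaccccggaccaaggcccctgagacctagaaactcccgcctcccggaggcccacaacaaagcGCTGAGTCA
Gclm: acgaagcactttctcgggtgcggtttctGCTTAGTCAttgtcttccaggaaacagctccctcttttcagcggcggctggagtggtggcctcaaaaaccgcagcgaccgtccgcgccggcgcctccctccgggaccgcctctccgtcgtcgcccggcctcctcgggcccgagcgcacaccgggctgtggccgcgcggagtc
The match in Gsta3 begins 17 bases before the start on the gene's strand. Those in Pir begin 114 and 9 bases before it and that in Gclm 172 bases before it, all on the opposite strand. The promoter of Akr7a3, also in the NRF2 list, held no match to this element. Of the clock motifs searched, the E-box CACGTG occurred in 1 of the 15 promoters, that of Cyp3a23-3a1 (8.91% of measured genes), the D-box TTATGTAA in 1, that of Gsta3 (0.528%), and its variant TTACGTAA in 0 (0.153%). These matches describe letters in a window and show neither binding nor a cause.

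The remaining genes that passed, Ddit4, Ddc and Nmrk1, have other roles. Ddit4, an inhibitor of mTORC1 signalling that many stresses induce, ran from 6.45 over 7.45 to 7.91 in vehicle, against 8.61, 9.21 and 8.77 at 61.2 mg/kg and 8.95, 8.53 and 9.18 at 122.5 mg/kg. It rose by 1.57 ± 0.28 (2.96-fold, limma adjusted p = 0.025) and its groups did not overlap. It did not pass without replicate 2 or 3 at 61.2 mg/kg, replicate 1 or 3 at 122.5 mg/kg, or vehicle replicate 4, 5 or 6 (limma adjusted p from 0.0515 to 0.116). Vehicle replicate 6 held its lowest value, and without that array the difference was 1.39. Ddc, which decarboxylates aromatic amino acids, rose 1.48-fold (0.57 ± 0.08, limma adjusted p = 0.00395), but its other probe set gave a difference of 0.07. Nmrk1, a nicotinamide riboside kinase that feeds the making of NAD, rose 1.24-fold (0.31 ± 0.05, limma adjusted p = 0.0108). Ddc, Nmrk1, Gstt3 and Aox1 belong to none of the gene lists described below.

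Across the 17 genes, the mean difference of an array from the vehicle mean was 0.71, 0.74 and 0.69 at 61.2 mg/kg and 0.76, 0.91 and 1.11 at 122.5 mg/kg, and from -0.11 to 0.13 over the vehicle arrays. The 61.2 mg/kg arrays lay close together. Replicate 3 at 122.5 mg/kg was the highest low-dose array in 12 of the 17 genes.

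**Figure D2:**
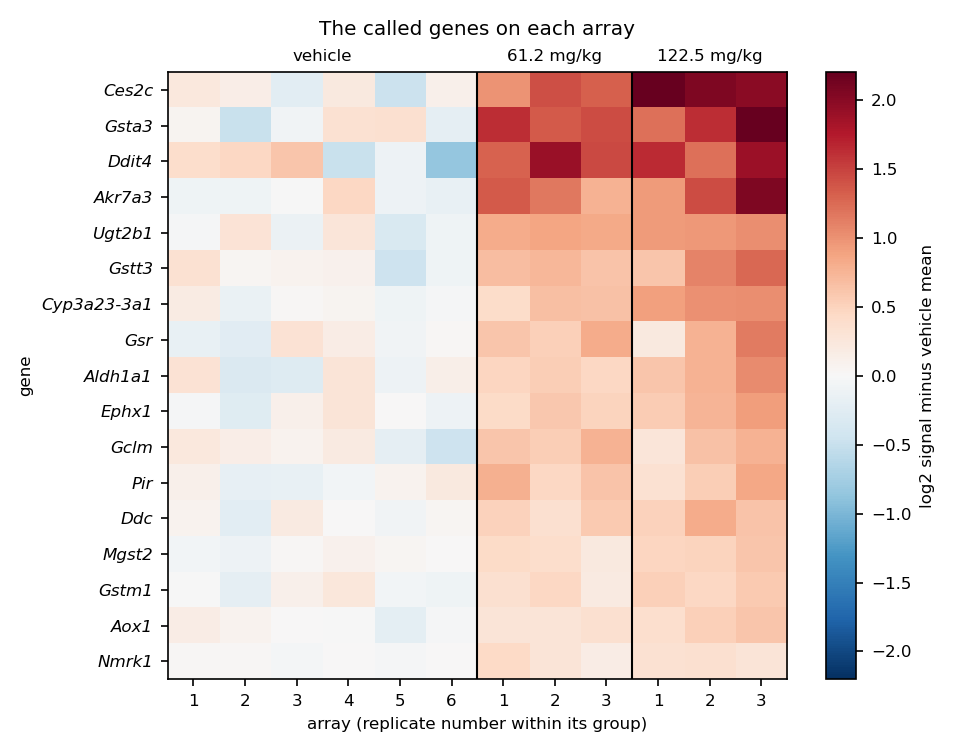
Rows are the 17 genes that passed and columns the 12 arrays, and colour gives the log2 signal minus the vehicle mean of the gene. The 6 low-dose columns are red throughout, while the vehicle columns scatter around 0, and replicate 3 at 122.5 mg/kg has the highest value in 12 rows.

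What pooling added was read by setting the pooled contrast beside each dose, all from the same fit and against the same 6 vehicle arrays, so the 3 counts are not independent. At 61.2 mg/kg alone 2 genes passed in limma, Ugt2b1 and Gsta3, which is 0.0141% of all genes. At 122.5 mg/kg alone 16 genes passed, all higher, which is 0.113%. Of the 17 pooled genes, 13 passed at 122.5 mg/kg and both of the genes that passed at 61.2 mg/kg were among them. The median SE over all genes was 0.0795 for the pooled contrast and 0.0973 for a single dose. With any one array of 61.2 mg/kg left out 0 genes passed at that dose, and without vehicle replicate 1, 2, 3 or 6 1 gene did. At 122.5 mg/kg the count was 4 without replicate 3 and 6 without replicate 2 of that dose, 10 without vehicle replicate 1, 8 without vehicle replicate 2, and 7 without vehicle replicate 3, 5 or 6.

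Pir, Ddit4, Gsr and Gclm passed when pooled and at neither dose alone. Ddit4 differed from vehicle by 1.55 ± 0.35 at 61.2 mg/kg and by 1.58 ± 0.35 at 122.5 mg/kg, with limma adjusted p-values of 0.281 and 0.122. Pir differed by 0.62 ± 0.12 and 0.58 ± 0.12 (limma adjusted p = 0.157 and 0.06). Gsr differed by 0.65 ± 0.15 and 0.70 ± 0.15, and Gclm by 0.64 ± 0.14 and 0.56 ± 0.14, with limma adjusted p-values from 0.113 to 0.345. In these 4 genes the single-dose differences were close to each other, and 3 of them are in the NRF2 list. Choosing genes that passed at neither dose alone favours such closeness, so it is no separate result.

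In the other direction, Abcc3, Cryl1 and Slc22a18 passed at 122.5 mg/kg and not when pooled. This choice in turn favours genes with smaller differences at 61.2 mg/kg. Abcc3, which pumps conjugates into blood, ran from 6.65 over 6.94 to 7.24 in vehicle, against 8.03, 7.70 and 7.08 at 61.2 mg/kg and 8.27, 8.37 and 9.02 at 122.5 mg/kg. Replicate 3 at 61.2 mg/kg lay within the vehicle range and all others above it. The pooled difference was 1.15 ± 0.24 (limma adjusted p = 0.0872), and that at 122.5 mg/kg alone was 1.62 ± 0.30 (limma adjusted p = 0.0323). Cryl1, an enzyme of the pathway from glucuronate to xylulose, gave 0.84 ± 0.17 pooled (limma adjusted p = 0.0595) and 1.11 ± 0.21 at 122.5 mg/kg (limma adjusted p = 0.0386). Slc22a18, a transporter-like membrane protein, gave 0.21 ± 0.05 pooled (limma adjusted p = 0.311) and 0.34 ± 0.07 at 122.5 mg/kg (limma adjusted p = 0.0498). Both genes also had 5 of 6 low-dose arrays above all vehicle arrays.

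**Figure D3:**
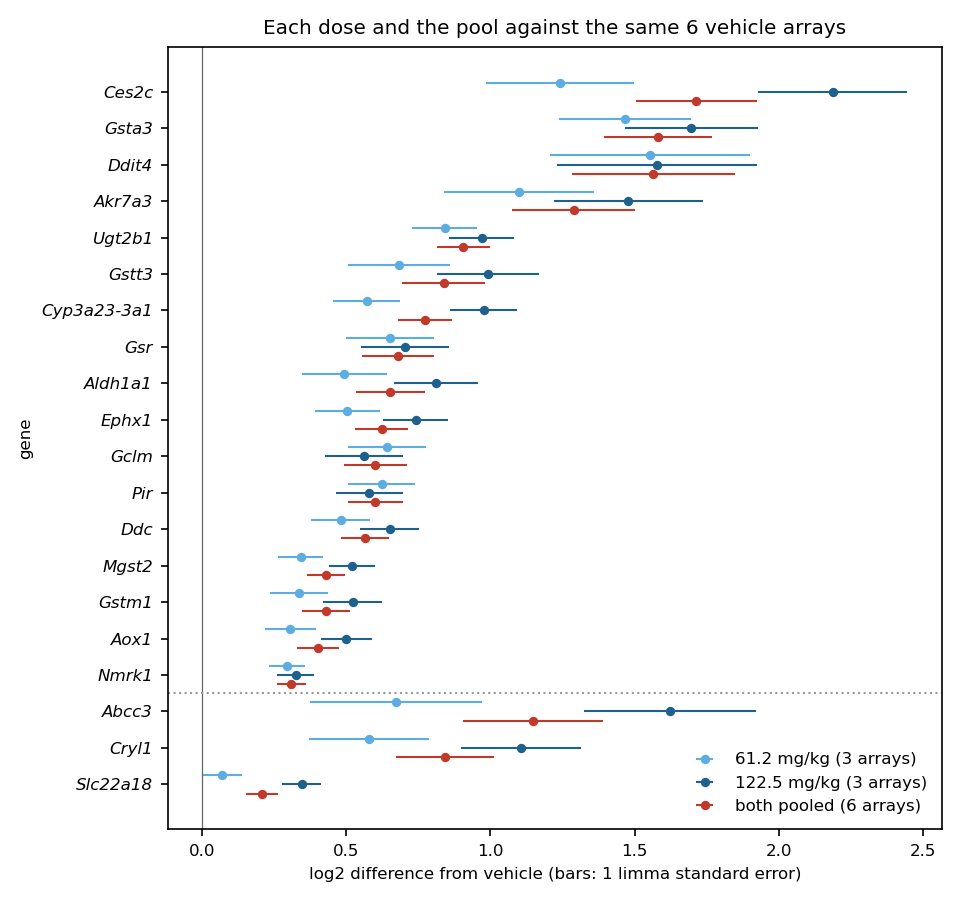
Points are log2 differences from vehicle at 61.2 mg/kg (light blue, 3 arrays), at 122.5 mg/kg (dark blue, 3 arrays) and for the pool (red, 6 arrays), with bars of 1 limma SE. The 17 genes that passed when pooled stand above the dotted line, and Abcc3, Cryl1 and Slc22a18, which passed at 122.5 mg/kg alone, stand below it with their 61.2 mg/kg values nearer 0.

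Whether the pooled doses differ from each other was tested directly, with no vehicle mean in the contrast. In limma 0 genes (0%) passed between 122.5 and 61.2 mg/kg, and 674 genes (4.74%) had an unadjusted p under 0.05. The median SE of this contrast was 0.1124, wider than that of the pooled contrast. In 15 of the 17 genes the mean was higher at 122.5 mg/kg, Pir and Gclm being the exceptions. The difference in Ces2c was 0.95 (95% interval 0.32 to 1.57, limma adjusted p = 0.95). That in Cyp3a23-3a1 was 0.41 (0.13 to 0.69, limma adjusted p = 0.95), and that in Abcc3 was 0.95 (0.23 to 1.67, limma adjusted p = 0.95). These 3 intervals for single genes lie above 0 but the genes did not pass over the whole table. The interval ran from -0.41 to 0.25 in Gclm, from -0.32 to 0.24 in Pir, from -0.31 to 0.42 in Gsr and from -0.81 to 0.86 in Ddit4. With 3 arrays a side, dose differences within those intervals are not excluded.

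No gene fell in the pooled contrast. The 5 lower genes with the smallest p were Mmp8, Slc7a8, Nsmf, Slc6a6 and Nfil3, and none passed. Slc6a6, the taurine transporter, ran from 9.77 over 9.97 to 10.48 in vehicle, and stood at 9.66, 10.08 and 9.07 at 61.2 mg/kg and at 8.58, 9.38 and 8.12 at 122.5 mg/kg. One 61.2 mg/kg array lay within the vehicle range and the other 5 low-dose arrays below it. The pooled difference was -0.91 ± 0.22 (limma adjusted p = 0.215), and at 122.5 mg/kg alone it was -1.37 ± 0.27 (limma adjusted p = 0.0501).

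Nfil3, a repressor of clock output genes, gave -0.50 ± 0.13 (limma adjusted p = 0.29) with 5 of 6 arrays below all vehicle arrays. Nsmf, a messenger between synapse and nucleus in neurons, gave -0.24 ± 0.06 (limma adjusted p = 0.207), and all 6 arrays lay below all vehicle arrays. The neutrophil collagenase Mmp8 gave -0.29 ± 0.06 (limma adjusted p = 0.125) at signals from 4.52 to 5.02, among the dimmest signals of the table. It passed at a limma adjusted p of 0.0323 without vehicle replicate 6, which held the lowest Mmp8 value of the vehicle arrays, 4.64. That array had the highest mean of the neutrophil markers among vehicle arrays. The amino acid transporter Slc7a8 gave -0.25 ± 0.06 (limma adjusted p = 0.168), and passed at 0.0474 without replicate 1 at 61.2 mg/kg.

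Gene lists for the pathways of foreign compound handling were counted next, beside the 0.12% of all genes that passed. The lists were chosen with earlier results of these data known, so their counts are a description and no test of a pathway. Of 22 measured targets of CAR and PXR, 6 rose and 0 fell, with a median log2 difference of 0.30 over the list. Cyp2b1, Cyp2b2, Cyp2c55, Ugt1a1, Aldh1a7 and Gsta2 of that list were not measured, so the counts say nothing of them. The members that rose were Ces2c, Cyp3a23-3a1, Ugt2b1, Ephx1, Aldh1a1 and Gstm1. Among members that did not pass, the drug pump Abcb1a gave 0.51 (limma adjusted p = 0.4) and Alas1, the first enzyme of haem synthesis, 0.36 (limma adjusted p = 0.758). The receptors themselves, Nr1i2 for PXR and Nr1i3 for CAR, gave -0.20 and -0.06. Cyp3a2, a male-predominant cytochrome, gave 0.13 ± 0.05 (limma adjusted p = 0.645), although all 6 low-dose arrays lay above the vehicle arrays.

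Of 21 measured NRF2 targets, 5 rose and 0 fell, with a median of 0.31. Nqo1, the quinone reductase often used to read NRF2 activity, stood at 9.29, 9.54 and 9.40 at 61.2 mg/kg and at 9.31, 9.30 and 9.80 at 122.5 mg/kg, against 8.73 over 8.94 to 9.05 in vehicle. All low-dose arrays lay above all vehicle arrays, but the difference of 0.51 ± 0.20 did not pass (limma adjusted p = 0.722). That SE pools the scatter within every group, the higher doses included, and is not the spread of the arrays compared here alone. Gclc, the catalytic subunit beside Gclm, gave 0.48 ± 0.12 (limma adjusted p = 0.216), and Me1, an enzyme that makes NADPH, gave 0.76 (limma adjusted p = 0.0695). Hmox1, the haem oxygenase of the list, gave -0.01 ± 0.21. Of 33 measured genes of conjugation and export, 4 rose and 0 fell (Gsta3, Ugt2b1, Mgst2 and Gstm1), with a median of 0.22, and 29 of the 33 lay above 0. Gsta1, another glutathione transferase, gave 0.32 (limma adjusted p = 0.0635).

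Among the esterases measured Ces2c alone passed. It was the only Ces2 entry of the list that was measured. Ces2a, Ces2e, Ces2g, Ces2h, Ces2i and Ces2j were not, nor was Ces1f. Of 12 measured carboxylesterases, paraoxonases and related lipases, 1 rose and 0 fell, with a median of 0.02. Ces1d, which splits lipid and drug esters, gave 0.01 ± 0.12, and Pon1, the paraoxonase that hydrolyses organophosphates in plasma, gave 0.01 ± 0.05, both with limma adjusted p-values over 0.99. The largest member value after Ces2c was 0.17, in Ces1e.

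Targets of other receptors for foreign or fatty compounds gave no calls. Among 7 measured targets of the aryl hydrocarbon receptor, 0 rose and 0 fell, with a median of -0.04. Cyp1a1, the most inducible of them, gave 0.03 ± 0.26 (limma adjusted p = 0.999), and Cyp1a2 gave -0.27 ± 0.11 (limma adjusted p = 0.723). Among 31 measured PPARA targets, 0 passed, with a median of -0.04. The fatty acid hydroxylases Cyp4a1 and Cyp4a3 gave -0.34 ± 0.21 and -0.38 ± 0.14, and Pdk4, which holds back glucose oxidation in fasting, gave -0.70 ± 0.29, with limma adjusted p-values of 0.882, 0.645 and 0.739. The other Pdk4 probe set gave -0.13.

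Stress and fasting lists held 1 called gene each, which was Ddit4 in both. In the list of endoplasmic reticulum and integrated stress, 1 of 28 measured genes rose and 0 fell, with a median of 0.10. Atf4, Ddit3 and the chaperone Hspa5 gave 0.27 ± 0.15, 0.10 ± 0.12 and -0.01 ± 0.08. Of 17 measured genes of fasting, gluconeogenesis and insulin response, 1 rose and 0 fell, with a median of -0.09, and the gluconeogenic Pck1 gave -0.09 ± 0.18. In the list of thyroid hormone clearance and response, 1 of 14 measured genes rose, Ugt2b1, and the deiodinase Dio1 gave -0.03 ± 0.11. The lists of 12 heat shock proteins (median -0.04) and 12 p53 targets (median 0.02) had 0 calls, and Cdkn1a, a cell cycle inhibitor in the p53 list, gave -0.55 ± 0.20 (limma adjusted p = 0.63). The other Cdkn1a probe set gave -0.07.

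Clock genes were examined because liver transcripts follow the hour of sampling. Of 14 measured clock output and repressor genes 0 passed, with a median of 0.11, and of 10 clock activators and late-night genes 0 passed, with a median of -0.06. Nr1d1 and Dbp, which peak by day, gave 0.57 ± 0.26 and 0.39 ± 0.37 (limma adjusted p = 0.77 and 0.937), and Npas2 and Bmal1 gave -0.26 ± 0.14 and -0.03 ± 0.15. The activator list also holds Slc6a6 and Nfil3, at -0.91 ± 0.22 and -0.50 ± 0.13. They were its 2 members lower at an unadjusted limma p under 0.05, and 0 were higher. The mean of the output list over its genes ran from -0.13 to 0.13 in vehicle arrays and from -0.03 to 0.41 in low-dose arrays. That of the activator list ran from -0.20 to 0.29 and from -0.62 to 0.04. Both ranges overlapped, and the part of sampling time in the 17 genes was not tested.

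**Figure D4:**
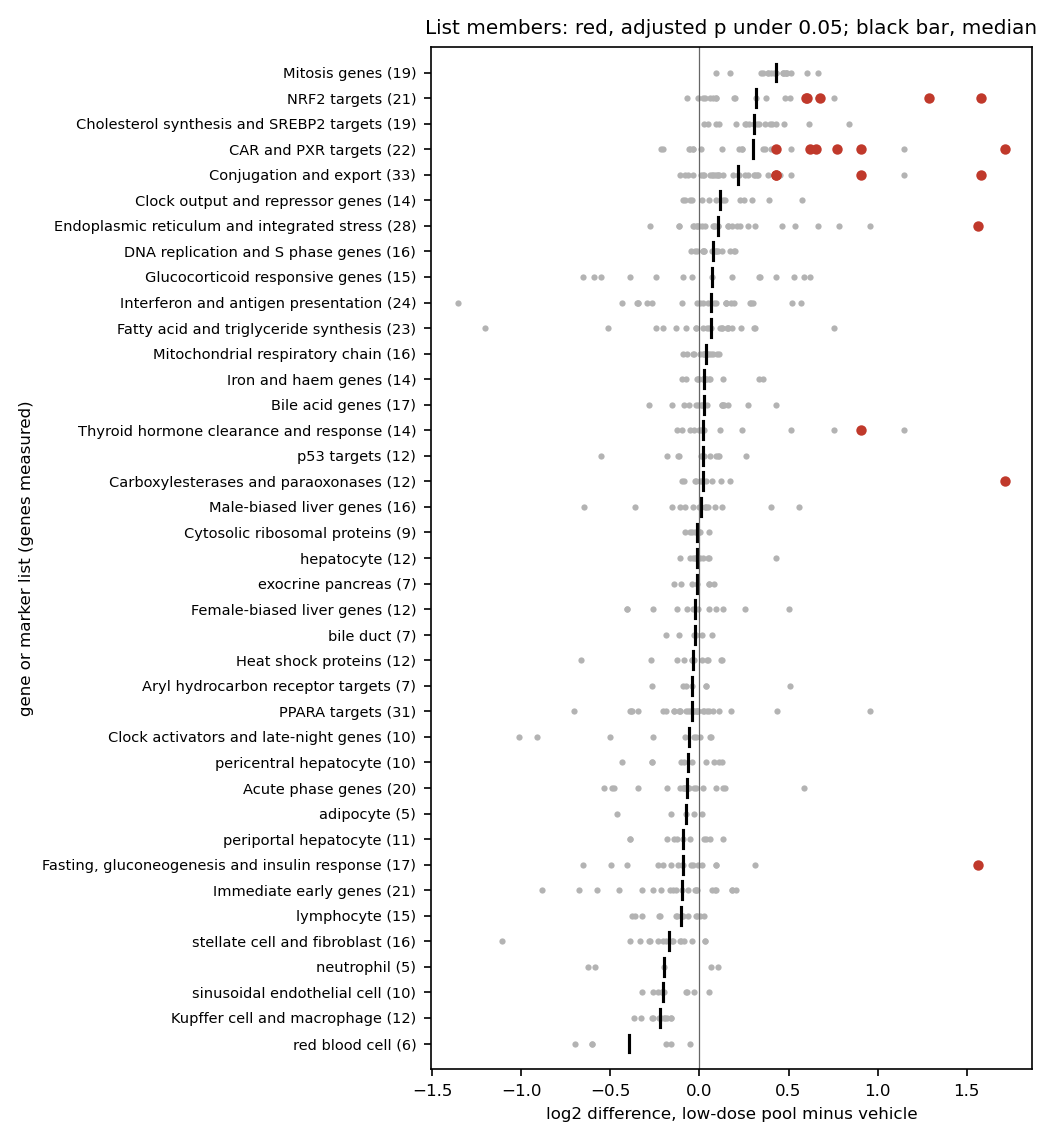
Each row is a gene or marker list with its number of measured genes, each point a gene's log2 difference between the low-dose pool and vehicle, and the black bar the list's median. Red points, the genes with an adjusted p under 0.05, fall in the lists of NRF2 targets, CAR and PXR targets, conjugation and export, esterases, thyroid genes, and (as Ddit4) the stress and fasting lists.

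No marker of another liver cell passed. All 12 measured Kupffer cell and macrophage markers lay below 0, with a median of -0.22, and Cd163 gave -0.37 ± 0.17 (limma adjusted p = 0.767). Their summed level, as a mean over markers relative to vehicle, ran from -0.29 to 0.19 in vehicle arrays and from -0.45 to 0.00 in low-dose arrays. The 6 red blood cell markers also lay below 0 (median -0.39, array means from -0.50 to 0.33 in vehicle and from -0.90 to 0.05 in the pool), Hbb giving -0.60 ± 0.28. Medians were -0.21 for 10 sinusoidal endothelial markers, -0.17 for 16 stellate cell and fibroblast markers, -0.10 for 15 lymphocyte markers and -0.02 for 7 bile duct markers, with 0 calls.

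The 12 hepatocyte markers had a median of -0.01 and 0 calls, with array means from -0.11 to 0.07 in vehicle and from -0.03 to 0.08 in the pool. Among the 12, the entry Tf, written for transferrin, was matched to F3, the coagulation tissue factor, so transferrin was not read. Among periportal markers (11, median -0.09) and pericentral markers (10, median -0.07) 0 passed, and Glul, confined to the last hepatocytes before the central vein, gave -0.27 ± 0.08 (limma adjusted p = 0.494). The 5 neutrophil markers had a median of -0.20, and vehicle replicate 6 stood at a mean of 0.91 in them, above all other arrays of the comparison. The mean over adipocyte and exocrine pancreas markers stayed between -0.23 and 0.14 on every array of the comparison. What part cell composition had in the 17 genes was not tested.

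The pool was then set against the higher doses. Between the mean of the 244.6, 489.2 and 978.5 mg/kg groups and the pool, 248 genes (1.74%) differed in limma, 148 higher and 100 lower. This contrast shares the low-dose arrays with the pooled one. Its count was 154 or 144 without replicate 1 or 2 at 61.2 mg/kg, 139 or 136 without replicate 1 or 2 at 122.5 mg/kg, and 149 without replicate 1 at 244.6 mg/kg. Among the 17 genes 8 were higher again at the higher doses, and they were Ces2c (1.58), Gsta3 (0.96), Pir (0.62), Cyp3a23-3a1 (0.52), Gsr (0.50), Aldh1a1 (0.49), Ugt2b1 (0.41) and Mgst2 (0.24). Ces2c went from a vehicle median of 9.12 to group means of 11.76, 12.30 and 12.78 at the higher doses, and Pir from 7.49 to 8.49, 8.65 and 8.96.

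Ddit4 did not follow that course. Its group means at the higher doses were 9.03, 8.31 and 9.05 in rising order of dose, against a median of 8.86 in the pool, and its difference between the higher doses and the pool was -0.07 (limma adjusted p = 0.949). Akr7a3 had group means of 13.38, 12.62 and 12.82, with a difference of 0.30 from the pool (limma adjusted p = 0.584). The largest values of this contrast among the genes described belong to Abcc3, at 2.06 (limma adjusted p = 6.71e-05), and Slc6a6, at -2.07 (limma adjusted p = 3.31e-05), neither of which passed in the pool.

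The 17 genes were also looked up in each higher dose against the same vehicle arrays, so these counts share their controls with the pooled one. All 17 were higher at 244.6 mg/kg, where 2.52% of all genes were called higher, 15 at 489.2 mg/kg (1.51%) and all 17 at 978.5 mg/kg (6.18%). The exceptions at 489.2 mg/kg were Ddit4, at 1.01 ± 0.35 (limma adjusted p = 0.144), and Nmrk1, at 0.21 ± 0.06 (limma adjusted p = 0.0859).

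**Figure D5:**
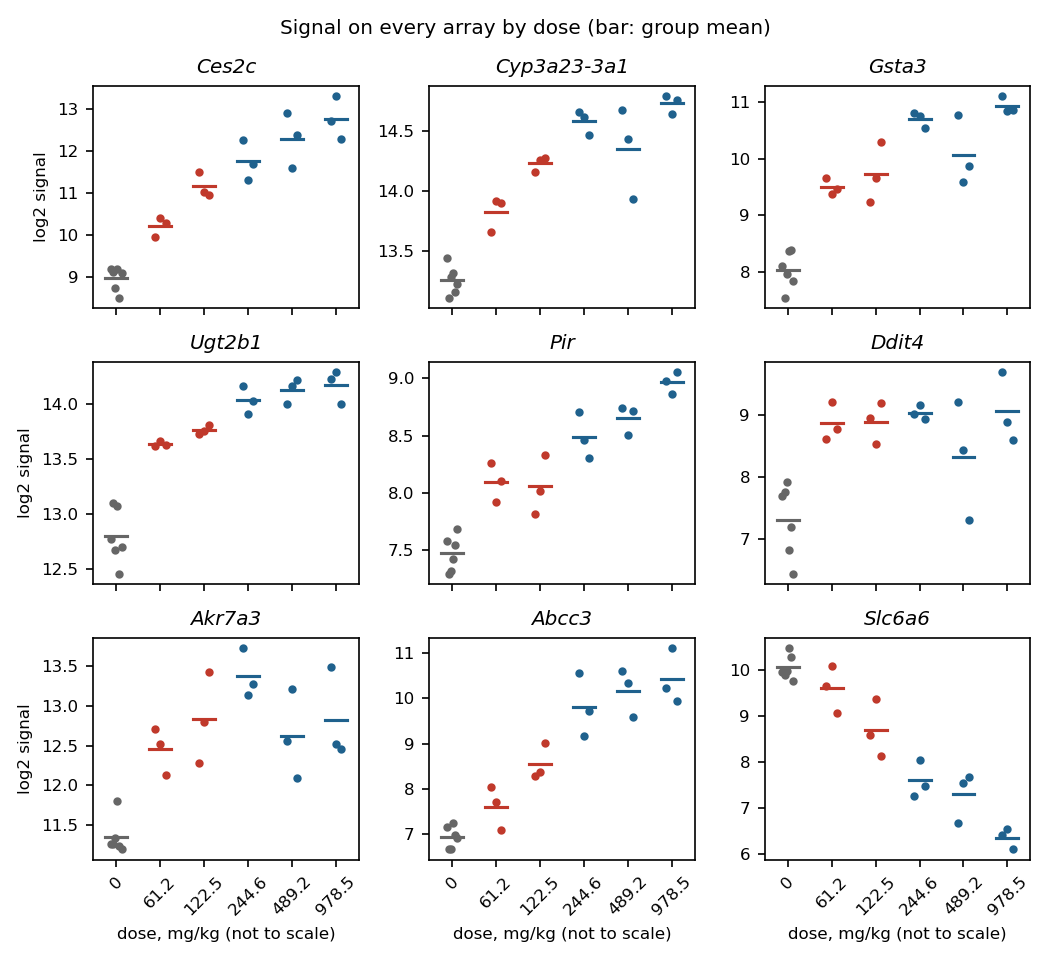
Points are the log2 signals of each array at the doses of the series, equally spaced along the horizontal axis, for 9 genes, with a bar at each group mean; vehicle is grey, the low doses red and the higher doses blue. The group mean of Ces2c climbs over every dose, every Ugt2b1 array from 61.2 mg/kg on lies above the vehicle arrays, Ddit4 does so at both low doses but has an array within the vehicle range at 489.2 mg/kg, and Slc6a6 declines with its 61.2 mg/kg arrays still reaching the vehicle range.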

How the data were processed

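Rat liver RNA was measured on 21 Affymetrix arrays. The deposited values are log2 signals that the authors made by RMA, per the submitters' processing notes, and the RMA version is not given in the sources used here. RMA normalises arrays to a common distribution, so a change shared by most genes would not show. The table held 31099 probe sets. Of these, 20832 had exactly 1 gene in the platform table, 436 had several and 9831 none, and both of these kinds were left out. Each of 14218 genes was read from 1 probe set, that of the highest mean signal (4526 had 2 or more). No further scaling or filter was applied.

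Groups came from the dose in the titles. limma 3.58.1 (lmFit and eBayes, R 4.3.3) was fitted with 1 mean per group over all 21 arrays, with 15 residual degrees of freedom, two-sided, and p-values were adjusted by Benjamini-Hochberg over all genes at 0.05. Summaries and plots used Python 3.11.15 with pandas 2.3.3 and matplotlib 3.10.9. The fit was checked on simulated data.

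The dose groups, the 27 gene lists and 12 marker lists (590 of 687 entries measured) were chosen with earlier results of these data known. Genes were named by rule: up to 12 called rises and falls without overlap between arrays (filled to 5 by smallest p), the first 3 entries and up to 4 called members of each list, genes called only when pooled, and genes called at 1 dose and not pooled. Other called genes, list members, and Slc34a2 and Abhd2 were named after their values were seen, and some genes that the rule gives are not described, for length. Alternatives covered probe set choice, level filter, floor, eBayes options, array weights, scaling, thresholds, the arrays fitted, a replicate block and each array left out. No scan date or slide was used.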

Additional observations from a re-analysis of the deposited data

Results flagged for a closer look

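In 50 groups of named genes tested for a sample far from the others, 2 stood out, and chance flags about 1 in 20 groups. Vehicle replicate 4 stood at 11.81 in Akr7a3, apart from the other vehicle arrays, which ran from 11.20 to 11.34. In Slc7a8, replicate 1 at 61.2 mg/kg stood at 7.20, apart from the other low-dose arrays, which ran from 6.83 to 6.95.

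For 8 of the genes that passed in the pool, the higher doses differed from the pool in limma's test of that contrast (Benjamini-Hochberg adjusted p under 0.05). The differences were 1.58 in Ces2c, 0.96 in Gsta3, 0.62 in Pir, 0.52 in Cyp3a23-3a1, 0.50 in Gsr, 0.49 in Aldh1a1, 0.41 in Ugt2b1 and 0.24 in Mgst2, on the log2 scale and all higher at the higher doses.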

How the results depend on the processing

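Of 390 values of the 17 genes under 23 settings with a value per gene, 299 kept their side of the threshold, 91 no longer passed and 0 changed direction, and 6 genes passed in every setting. The pooled count of 17 became 10 with the floor, 33 (28 higher, 5 lower) with array weights and 888 at an unadjusted p, and ran from 10 to 20 with an array left out. In alternatives chosen after seeing the data it was 11 by an F test of both doses and 10 without the arrays that correlate least (vehicle replicate 6 and 61.2 mg/kg replicate 3), and a slope on dose gave 19. The count of 2 at 61.2 mg/kg became 1 with the floor, eBayes trend and robust options, a second quantile normalisation or only the groups compared, 779 at an unadjusted p, and ran from 0 to 2 with an array left out. The count of 16 at 122.5 mg/kg became 357 with array weights, 8 with only the groups compared and 862 at an unadjusted p, and ran from 4 to 17. The count of 0 between the low doses became 674 at an unadjusted p and stayed 0 with any array left out. The 248 genes between the higher doses and the pool became 749 with array weights, 70 at 1.5-fold, 378 at an adjusted p of 0.1 and 1821 at an unadjusted p, and ran from 136 to 269. The causes were not tested. No sign of pairing by replicate number was seen among vehicle and the low doses. Over 9 pairs with the same number the correlation of their deviations ran from -0.172 to 0.121. Over pairs with different numbers it ran from -0.138 to 0.207. Pairing was not tested at the higher doses, and so few correlations cannot decide whether same-numbered arrays shared a block. With a replicate block the pooled count was 8 (7 higher, 1 lower, Mmp8), that at 61.2 mg/kg 1, that at 122.5 mg/kg 4 and that between higher and low doses 290. With 3 arrays a dose, differences of the size of the median SE, 0.0973, lie within the error.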

Other observations

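Genes of cholesterol synthesis, which SREBP2 switches on when sterols run low, all lay above 0 in the pool. Of 19 measured, 0 passed in limma, with a median of 0.31 and a range from 0.03 to 0.84. Squalene epoxidase, Sqle, gave 0.41 ± 0.23 (limma adjusted p = 0.843), the isomerase Idi1 0.40 ± 0.20 (limma adjusted p = 0.834) and squalene synthase, Fdft1, 0.33 ± 0.12 (limma adjusted p = 0.63). The list mean ran from -0.42 to 0.47 over vehicle arrays and from 0.20 to 0.39 over low-dose arrays, so the low-dose arrays lay inside the vehicle range. Among 23 genes of fatty acid and triglyceride synthesis 0 passed (median 0.06), and the desaturase Scd gave -1.21 ± 0.48 (limma adjusted p = 0.723), with low-dose arrays from 8.16 to 11.66 and vehicle arrays from 9.76 to 12.26.

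Genes of mitosis had the highest median of the lists, 0.43, with all 19 above 0 and 0 passing. The list mean ran from -0.61 to 1.36 over low-dose arrays and from -0.59 to 0.58 over vehicle arrays, and Mki67, a marker of dividing cells, gave 0.60 ± 0.49 (limma adjusted p = 0.919). Against the same vehicle arrays, all 19 were called at 244.6 mg/kg, where 2.95% of all genes were called. At 978.5 mg/kg 0 were called, where 10.2% of all genes were. The list's median difference from vehicle was 2.07, -0.20 and 0.38 in the groups of 244.6, 489.2 and 978.5 mg/kg. Cyp2c12, the female-predominant steroid hydroxylase, gave 0.50 ± 0.17 (limma adjusted p = 0.63) with 4 of 6 low-dose arrays above all vehicle arrays, and its male-predominant counterpart Cyp2c11 gave 0.05 ± 0.06. Bile acid genes (17, median 0.03), immediate early genes (21, median -0.10), glucocorticoid responsive genes (15, median 0.07), acute phase genes (20, median -0.07), interferon genes (24, median 0.06), iron and haem genes (14, median 0.03), replication genes (16, median 0.07), ribosomal proteins (9, median -0.01), respiratory chain genes (16, median 0.03), male-biased genes (16, median 0.01) and female-biased genes (12, median -0.02) had 0 calls. The 14 iron and haem genes also hold F3 in the place of transferrin.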
